A study of Homo sapiens with 2 samples.

Results

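The genes described here are RBMS1, LACC1, YRDC, IGF2BP3, GPSM2, SHCBP1, SUCNR1, JAML, FER and STX3. They were chosen by their array signals, which had been seen lower after an siRNA against T-bet than after a control siRNA, so that difference is a description of the members and not a finding about them. The 10 genes were read by 28 of the 54675 probe sets on the array, and every one of those probe sets is reported. The cells were KG1, an established line from an acute myeloid leukaemia with a primitive, CD34-positive phenotype. In the group siRNA-Tbet the cells were electroporated with 1.98 µg of siRNA-Tbet, and in the group siRNAc with 1.98 µg of the control siRNAc; no source used here gives either sequence. Both groups then rested for 5 h and were given IL-18 at 10 ng/ml for 12 h, so no array describes cells without the cytokine or without electroporation. Each group is 1 array of 1 transfected line. No value below has a replicate error, no p-value was computed, and the number of arrays limits the precision.

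T-bet, the product of TBX21, is a T-box transcription factor that drives interferon-γ production in type 1 lymphocytes, and IL-18 prompts cells that carry its receptor to make interferon-γ. An siRNA lowers a transcript by guiding Argonaute to a complementary site. The members belong to no shared pathway. They include RNA-binding proteins, a tRNA modification enzyme, regulators of mitosis, surface receptors, a purine enzyme of macrophages, a tyrosine kinase and a membrane fusion protein.

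Signals are MAS5 intensities in arbitrary units, 1 per probe set and array. A probe set was counted as measured when it lay above the array median (144 for siRNA-Tbet and 146 for siRNAc) on at least 1 array, and values under the median were raised to it before a ratio was formed. TBX21 itself read 1839 under siRNA-Tbet and 3581 under siRNAc. The targeted transcript was thus 1.95-fold lower on its only probe set, at 51.3% of the control signal. Of the KG1 and early myeloid markers, CD34 (17130 and 15839), PTPRC, HLA-DRA and GATA2 were bright on both arrays, whereas KIT was under the array median on both. CD3D, a T lymphocyte marker, was also bright (16036 with siRNA-Tbet and 13657 with siRNAc), while CD3G, CD5 and CD8A were under the median on both arrays. CD2, another T lymphocyte marker, had 339 with siRNA-Tbet and 663 with siRNAc, 1.96-fold lower. With the brightest probe set of each gene, those with the suffix _x_at included, the summed signal was 19746 (siRNA-Tbet) and 17712 (siRNAc) for T lymphocyte markers (4 of 7 measured) and 2041 and 1929 for B lymphocyte markers (3 of 4). It was 335 and 413 for erythroid markers (1 of 2) and 635 and 464 for epithelial markers (2 of 5, with EPCAM and CDH1 under the median). The erythroid sum has no settled direction, because HBB, its only measured gene, had 230 and 319 on the probe set summed but 227 and 152 on another. Their part in the results below was not tested. In bulk RNA, fewer cells expressing a gene and less RNA per cell cannot be told apart.

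Of the 28 member probe sets, 24 were measured, and these were lower with siRNA-Tbet in 24 of 24 cases, beside 51.8% of all measured probe sets. One of them, 206412_at of FER, was measured only through its siRNAc value and so could only come out lower; the other 23 were above the median on both arrays. A difference of at least 1.5-fold was present at 17 of them, beside 3.31% of the 23547 measured probe sets named for 1 gene, and at least 2-fold at 4, that FER probe set included, beside 0.352%. The median log2 ratio of siRNA-Tbet over siRNAc was -0.69 over the measured member probe sets and -0.01 over all measured probe sets. At least 2 probe sets were at least 1.5-fold lower in 3 members (RBMS1, LACC1 and FER), beside 0.487% of the 6155 genes with 2 or more measured probe sets. For FER the second of these is 206412_at. These counts, and the ranks of members among probe sets or genes given below, follow from how the members were chosen and are given as a description. The 4 probe sets that were not measured belong to IGF2BP3 (2 probe sets), GPSM2 and FER. As a guide to technical noise, the spread between probe sets of 1 gene was 0.41 on the log2 scale at the dimmest signals and 0.12 at the brightest. This spread leaves out variation between cultures and between RNA preparations.

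**Figure D1:**
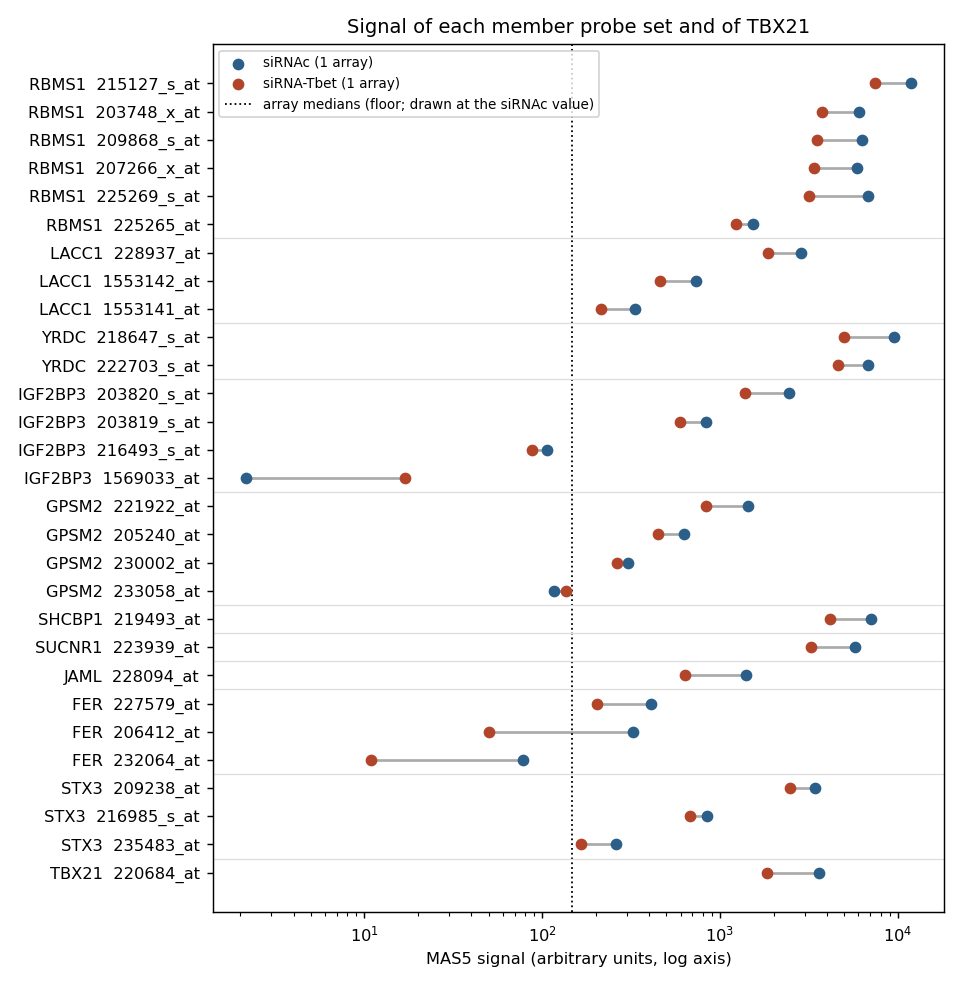
Signal of each of the 28 member probe sets and of TBX21 on the siRNA-Tbet array (red) and the siRNAc array (blue), in arbitrary MAS5 units on a log axis, with 1 array per group. Red lies to the left of blue at all 24 measured member probe sets, and the order is turned only at 1 probe set each of IGF2BP3 and GPSM2, both under the array medians (dotted line).

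**Figure D2:**
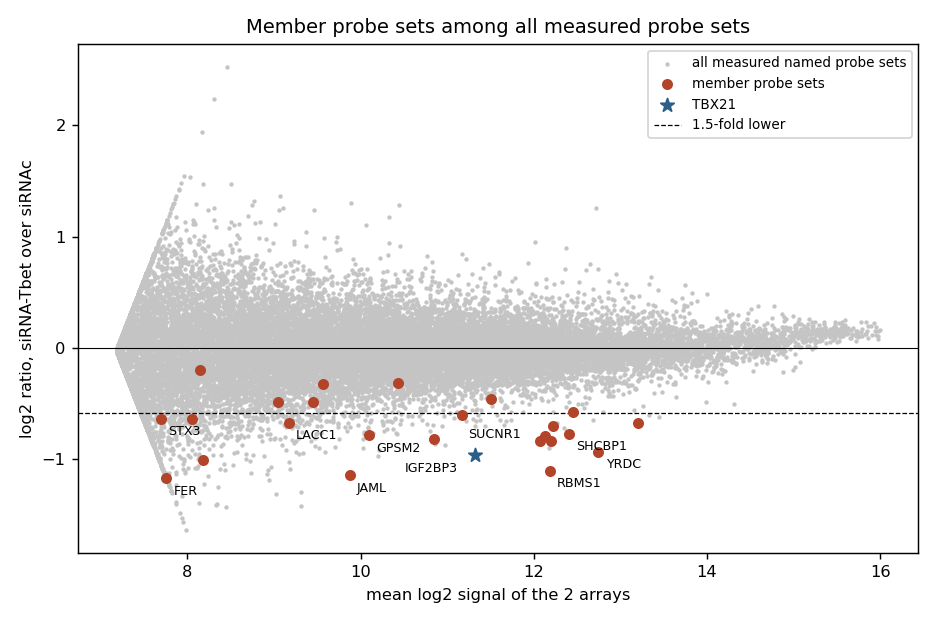
Log2 ratio of siRNA-Tbet over siRNAc against the mean log2 signal of the 2 arrays for the 23547 measured named probe sets (grey), the 24 measured member probe sets (red, named at each gene's lowest ratio) and TBX21 (star). All member probe sets lie below 0, and 17 lie at or below the dashed line of a 1.5-fold lower signal.

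RBMS1 and IGF2BP3 encode RNA-binding proteins. RBMS1 binds AU-rich single-stranded nucleic acid and was first described through its binding near the MYC gene. Its 6 probe sets gave the most readings of any member. The probe set 215127_s_at had 7468 with siRNA-Tbet and 11885 with siRNAc, and 225269_s_at had 3180 and 6837. These differences were 1.59-fold and 2.15-fold, and each was the lowest ratio among the 2355 probe sets of its decile of signal. The probe sets 209868_s_at, 203748_x_at and 207266_x_at, with 3508 and 6267, 3732 and 6072, and 3397 and 5872 for siRNA-Tbet and siRNAc, were 1.79-fold, 1.63-fold and 1.73-fold lower. The sixth probe set, 225265_at, was the least different, at 1235 and 1537, which is 1.24-fold lower. It is also the only RBMS1 probe set without the suffix _s_at or _x_at, which mark probe sets that can read more than 1 transcript or cross-hybridise. The log2 ratios of RBMS1 thus ran from -1.10 to -0.32, with an SD of 0.26 over the 6 probe sets.

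IGF2BP3 is an oncofoetal protein that binds and stabilises mRNAs and is expressed in many leukaemias. Its probe set 203820_s_at had 1388 with siRNA-Tbet and 2450 with siRNAc, and 203819_s_at had 594 and 829. The first was 1.76-fold lower and the second 1.40-fold lower, so only 1 of the 2 measured probe sets passed 1.5-fold. The other probe sets of IGF2BP3 were under the array median on both arrays: 216493_s_at at 87.9 with siRNA-Tbet and 106 with siRNAc, and 1569033_at at 16.9 and 2.16. Values that low have no usable order.

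Relatives of these proteins were read together with other mRNA-binding proteins. The list of RBMS and IGF2BP relatives and other mRNA-binding proteins had 7 measured genes, of which 1 was at least 1.5-fold lower and 0 at least 1.5-fold higher, with a median log2 ratio of -0.02. Over all 12164 measured genes, each read by 1 probe set, 2.96% were at least 1.5-fold lower, 1.96% at least 1.5-fold higher, and the median was also -0.02. The gene past 1.5-fold was RBMS2, a close relative of RBMS1, at 231 with siRNA-Tbet and 374 with siRNAc on 34187_at. A second RBMS2 probe set had 148 and 230, and the other 2 had 185 and 186, and 142 and 151. RBMS2 was therefore 1.62-fold and 1.55-fold lower at 2 probe sets and nearly equal at 2, all of them dim. RBMS3, also a relative of RBMS1, was dim and 1.20-fold lower, at 150 with siRNA-Tbet and 180 with siRNAc. IGF2BP2, the paralog of IGF2BP3, had 4370 with siRNA-Tbet and 4354 with siRNAc, and YBX1, an abundant mRNA-binding protein, 45912 and 41912.

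YRDC makes the threonylcarbamoyl-adenylate that the KEOPS complex transfers to tRNAs reading codons that begin with A, a modification called t6A. Its probe set 218647_s_at had 4966 with siRNA-Tbet and 9495 with siRNAc, and 222703_s_at had 4591 and 6832. The first was 1.91-fold lower, the second lowest ratio among the 2355 probe sets of its signal decile. The second was 1.49-fold lower and so fell just short of 1.5-fold. Other tRNA modification genes, KEOPS subunits among them, did not share that size of difference. Of 9 measured genes, 0 were at least 1.5-fold lower and 0 at least 1.5-fold higher, with a median log2 ratio of -0.04. OSGEP, the catalytic subunit of KEOPS, had 2067 with siRNA-Tbet and 2323 with siRNAc. TP53RK, the kinase subunit, had 3031 and 2625 on its brighter probe set and 1638 and 1661 on the other. TRMO, which methylates t6A, was 1.45-fold higher (922 and 637) and 1.36-fold higher on a second probe set (704 and 516).

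GPSM2 and SHCBP1 act in dividing cells. GPSM2, also called LGN, ties Gαi proteins at the cell cortex to NUMA1 and dynein and so orients the mitotic spindle. Its probe sets 221922_at, 205240_at and 230002_at had 835, 447 and 265 with siRNA-Tbet and 1438, 627 and 305 with siRNAc. The differences narrowed from 1.72-fold to 1.40-fold to 1.15-fold, and the last was smaller than the technical spread of 0.41 on the log2 scale at that signal. The fourth probe set, 233058_at, was under the array median on both arrays, at 136 and 117. SHCBP1 binds the adaptor SHC1 and takes part in the midbody during abscission. It was read by 1 probe set, at 4145 for siRNA-Tbet and 7085 for siRNAc, a 1.71-fold lower signal.

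Partners of both proteins stayed within 1.5-fold on the chosen probe sets. In the spindle orientation list 5 of 10 measured genes were lower and 5 higher, with 0 past 1.5-fold in either direction. NUMA1 had 2562 with siRNA-Tbet and 2894 with siRNAc on its brightest probe set, and 2 of its 4 measured probe sets were higher. In the list of central spindle and abscission genes 8 of 14 were lower and 6 higher, again with 0 past 1.5-fold, and the median log2 ratio was -0.01. CEP55, a midbody scaffold, was 1.23-fold lower (3972 and 4886), whereas INCENP, a subunit of the chromosomal passenger complex, was 1.34-fold higher (773 and 577) and PRC1, which bundles midzone microtubules, 1.20-fold higher (7371 and 6138).

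The promoter windows of GPSM2 and SHCBP1 are shown because both hold elements known from cell cycle promoters, the CCAAT box and the cell cycle genes homology region (CHR). Each window runs from 250 bases before to 50 bases after a RefSeq transcription start on GRCh38.p14, at chr1:108876735-108877034 on the plus strand for GPSM2 and chr16:46621330-46621629 on the minus strand for SHCBP1, written 5′ to 3′. Capitals mark CCAAT or its complement ATTGG, and the CHR letters TTTGAA.
GPSM2: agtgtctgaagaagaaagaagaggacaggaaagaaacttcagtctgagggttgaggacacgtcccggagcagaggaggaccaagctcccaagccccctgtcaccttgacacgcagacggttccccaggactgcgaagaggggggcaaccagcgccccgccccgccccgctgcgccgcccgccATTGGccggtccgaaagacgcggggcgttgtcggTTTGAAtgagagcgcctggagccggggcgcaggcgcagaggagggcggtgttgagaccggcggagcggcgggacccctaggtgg
SHCBP1: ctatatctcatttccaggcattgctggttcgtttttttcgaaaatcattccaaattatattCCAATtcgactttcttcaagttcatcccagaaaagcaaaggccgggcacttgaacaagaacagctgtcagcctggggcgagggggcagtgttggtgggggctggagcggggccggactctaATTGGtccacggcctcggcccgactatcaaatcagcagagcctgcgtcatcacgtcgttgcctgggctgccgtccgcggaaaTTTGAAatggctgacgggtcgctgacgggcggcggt
Counting the start as 0, ATTGG stands at -68 to -64 in both windows, and SHCBP1 has a second match, CCAAT, at -189 to -185. TTTGAA stands at -34 to -29 in GPSM2 and at 14 to 19 in SHCBP1. Neither set of letters is particular to these genes. Over all windows of this length CCAAT was in 34.6% and TTTGAA in 15.2%. Among the other members FER also holds CCAAT, and IGF2BP3 and SUCNR1 hold TTTGAA.

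SUCNR1 and JAML encode proteins of the cell surface. SUCNR1 is a G protein-coupled receptor for extracellular succinate that is found on myeloid cells. Its only probe set had 3230 with siRNA-Tbet and 5773 with siRNAc, 1.79-fold lower. Genes of succinate metabolism and receptors related to SUCNR1 did not share that size of difference. Of 11 measured, 8 were lower and 3 higher, beside 53.7% lower over all measured genes, and the median log2 ratio was -0.06. At least 1.5-fold lower were 0, and at least 1.5-fold higher was 1. The gene past 1.5-fold was SLC13A3, a dicarboxylate transporter, at 403 with siRNA-Tbet and 257 with siRNAc, but its second probe set had 248 and 301. P2RY14, a related receptor that responds to UDP-sugars, was 1.37-fold lower (890 and 1216). SUCLG1, a subunit of succinate-CoA ligase, was 1.22-fold higher (7818 and 6388).

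JAML is an adhesion molecule of leukocytes that binds CXADR on epithelium and endothelium and serves in their transmigration. Its only probe set had 632 with siRNA-Tbet and 1398 with siRNAc, 2.21-fold lower, which was the lowest ratio among the 2354 probe sets of its signal decile. Among the 5 measured genes of the JAM and CXADR adhesion list, 1 was at least 1.5-fold lower and 1 at least 1.5-fold higher. The lower one was MPZL3, an immunoglobulin-domain protein, at 327 with siRNA-Tbet and 743 with siRNAc. MPZL3 was 2.27-fold lower on its only measured probe set, beside 2.21-fold for JAML. It is also the nearest annotated protein-coding gene with a measured probe set on that side of JAML. CXADR lay in the opposite direction at a dim signal, 266 with siRNA-Tbet and 139 with siRNAc, at least 1.82-fold higher with the siRNAc value raised to the array median. JAM3 had 820 and 739, and MPZL2, a relative of MPZL3, had 163 and 122.

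The promoter window of JAML, at chr11:118212897-118213196 on the minus strand of GRCh38.p14, is shown because it holds the only interferon-stimulated response element (ISRE) match among the members, in capitals. The letters searched were GAAA, any 2 bases, then GAAA.
JAML: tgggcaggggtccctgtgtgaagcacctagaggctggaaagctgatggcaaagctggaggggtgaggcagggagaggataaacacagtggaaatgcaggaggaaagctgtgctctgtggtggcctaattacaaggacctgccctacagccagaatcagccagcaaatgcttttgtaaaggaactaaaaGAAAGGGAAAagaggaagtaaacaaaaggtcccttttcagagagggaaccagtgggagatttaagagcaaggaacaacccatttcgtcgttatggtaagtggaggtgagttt
The match lies at -62 to -53. RefSeq gives this window for 1 start of JAML, and the gene has transcripts that begin elsewhere.

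LACC1, also called FAMIN, is a purine enzyme of macrophages that has been tied to NOD2 signalling and, by its variants, to inflammatory bowel and joint disease. Its 3 probe sets were the most even among the members with several. They had 1868 with siRNA-Tbet and 2837 with siRNAc on 228937_at, 458 and 728 on 1553142_at, and 213 and 332 on 1553141_at. The differences of 1.52-fold, 1.59-fold and 1.56-fold gave an SD of 0.03 on the log2 scale. LACC1 was the only gene of the 2928 with 3 or more measured probe sets, a share of 0.0342%, at which every measured probe set was at least 1.5-fold lower, although with the arrays scaled to equal medians the ratio of 228937_at was -0.58 and missed that size. Genes of purine nucleoside metabolism and NOD2 signalling had 0 of 11 measured genes called at 1.5-fold in either direction, with NOD2 only bounded. MTAP, which salvages methylthioadenosine, was 1.36-fold lower on its brightest probe set (1546 and 2097) and lower on 4 of 5. NOD2 had 25.4 with siRNA-Tbet and 194 with siRNAc, at least 1.34-fold lower, and it passed 1.5-fold when the floor was lowered to the 25th percentile or left out. APRT, which salvages adenine, was 1.25-fold lower on 1 probe set (3792 and 4728) and higher on the other (2411 and 2249).

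FER is a cytoplasmic tyrosine kinase with an F-BAR domain that phosphorylates cortactin and p120-catenin at cell contacts. It was dim throughout. The probe set 227579_at had 204 with siRNA-Tbet and 410 with siRNAc, and 206412_at had 50.1 and 324. The first was 2.01-fold lower, and the second at least 2.25-fold lower because its siRNA-Tbet value lay under the array median. The third, 232064_at, was under the median on both arrays, at 10.9 and 78.3. The technical spread at these signals was 0.41 on the log2 scale, the widest of the 10 signal bins. Of 11 measured relatives and partners of FER, 0 were past 1.5-fold in either direction on the chosen probe sets. GAB1 was 1.13-fold higher there (542 with siRNA-Tbet and 479 with siRNAc) and 1.59-fold higher on another probe set (445 and 280). It was higher on 2 of its 5 measured probe sets. PTPN1, a phosphatase, was 1.29-fold lower (949 and 1221), and CTNNB1, which encodes β-catenin, was 1.25-fold lower on 1 probe set (4533 and 5646) and 1.18-fold higher on the other (1422 and 1210).

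The promoter window of FER, at chr5:108747647-108747946 on the plus strand of GRCh38.p14, is shown because it was the only member window with the core letters of a T-box site, GGTGTGA. They stand on the minus strand, so the capitals read TCACACC.
FER: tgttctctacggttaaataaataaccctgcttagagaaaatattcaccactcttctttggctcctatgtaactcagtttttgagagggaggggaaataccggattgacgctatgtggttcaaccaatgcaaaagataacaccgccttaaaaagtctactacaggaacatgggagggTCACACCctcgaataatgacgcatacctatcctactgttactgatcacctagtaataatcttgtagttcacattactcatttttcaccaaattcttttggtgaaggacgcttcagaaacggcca
The match lies at -74 to -68.

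STX3 is a SNARE protein that drives fusion of vesicles and granules with the plasma membrane. Its probe sets 209238_at, 216985_s_at and 235483_at had 2483, 675 and 166 with siRNA-Tbet and 3413, 845 and 259 with siRNAc. The brightest was 1.37-fold lower and the next 1.25-fold lower, and only the dimmest, at 1.56-fold, passed 1.5-fold. STX3 was thus the member with the smallest difference on its brightest probe set. The list of other SNARE proteins, further syntaxins included, and of SNARE regulators had 20 measured genes. Of these, 0 were at least 1.5-fold lower and 1 at least 1.5-fold higher, with a median log2 ratio of -0.09. The higher one was STX1A, a syntaxin of exocytosis, at 491 with siRNA-Tbet and 271 with siRNAc, 1.81-fold higher on its only measured probe set. VAMP2, a vesicle SNARE, was 1.27-fold higher on its brightest probe set (1183 and 931) but lower on the other 2, and SNAP25 was at 214 and 172.

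Over the 9 lists of relatives and partners together, 98 genes were measured. Of these, 2 were at least 1.5-fold lower (RBMS2 and MPZL3) and 3 at least 1.5-fold higher (CXADR, SLC13A3 and STX1A), which is 2.04% and 3.06%, close to the shares over all measured genes. In 5 of the 9 lists no gene was called at 1.5-fold in either direction on its chosen probe set, although NOD2 in 1 of them has only a bound.

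**Figure D3:**
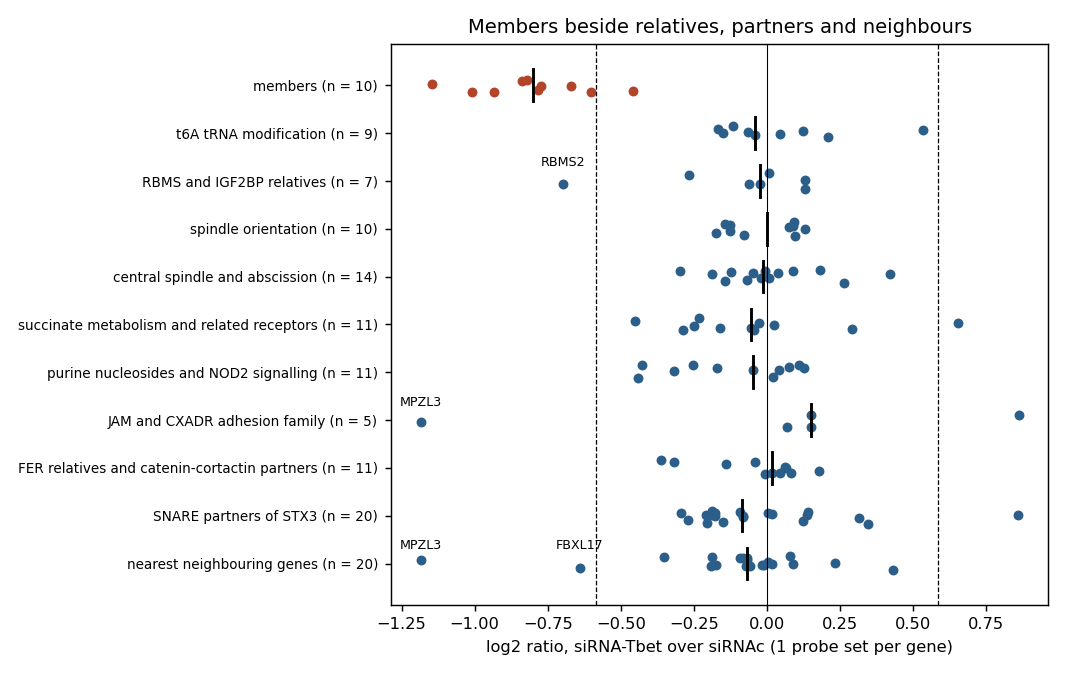
Log2 ratio of siRNA-Tbet over siRNAc for the members (red), 9 lists of relatives and partners and the 20 nearest measured neighbours (blue), 1 probe set per gene and 1 point per gene, with medians as black bars and dashed lines at 1.5-fold. Among the blue points only RBMS2, MPZL3 (drawn in 2 rows) and FBXL17 lie at or beyond the lower line.

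The nearest measured genes on either side of the members were compared as well. Genes without a measured probe set were passed over, so these neighbours need not be adjacent. The gaps ran from 0 bases, where the genes overlap, to 14661234 bases beside SHCBP1. MPZL3 lies 1679 bases from JAML, and FBXL17 lies 365799 bases from FER. Of the 20 nearest protein-coding genes with a measured probe set, 1 on each side of each member, 14 were lower and 6 higher with siRNA-Tbet, and the median log2 ratio was -0.07, while 53.7% of all measured genes were lower. At least 1.5-fold lower were 2, MPZL3 beside JAML and FBXL17 beside FER, against 2.96% of all measured genes, and at least 1.5-fold higher were 0. FBXL17, a ubiquitin ligase subunit, was dim, at 144 with siRNA-Tbet and 225 with siRNAc, at least 1.56-fold lower. FBXL17 and ENOX1, the latter beside LACC1 at 126 and 184, were measured only through siRNAc and so could only come out lower. Of the 18 neighbours above the median on both arrays, 12 were lower and 6 higher, and 1 was at least 1.5-fold lower. Of the 2 genes whose starts lie within 1 kb of a member's start, 1 could be compared. C1orf122, which starts on the opposite strand beside YRDC, had 2489 with siRNA-Tbet and 2841 with siRNAc, 1.14-fold lower against 1.91-fold for YRDC. CCDC122, which starts opposite LACC1, was under the array median on both arrays, at 64.7 and 53.4, and gives no comparison.

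Promoter letters were compared across all members. RefSeq promoter windows were found for 10 of 10 members, 11 windows in all because LACC1 has 2 starts. Both strands were searched, and shares refer to all 35114 windows of that length. The T-box site AGGTGTGA was in 0 of the 11 windows, beside 0.980% of all windows, and its inner letters GGTGTGA, which lie within that site, were in 1, that of FER, beside 3.45%. The CCAAT box was in 3 (GPSM2, SHCBP1 and FER), beside 34.6%, and TTTGAA in 4 (GPSM2, SHCBP1, IGF2BP3 and SUCNR1), beside 15.2%. The GC box GGGCGG was in 7 windows of 6 members, beside 45.0%. The ETS letters CCGGAAG were in 1 window, that of YRDC, beside 10.3%, and stood there at 2 places. The STAT letters TTCNNNGAA were in 1, that of IGF2BP3, beside 7.66%, and the ISRE in 1, that of JAML, beside 3.57%. TATAAA and the E2F letters TTTGGCGC were in 0, beside 11.5% and 0.652%. The windows also differed widely in base composition, from 37.7% G and C with 0 CpG in SUCNR1 to 75.3% with 39 CpG in STX3, around a median of 58.7% and 14 CpG over all windows. A match is a description of letters in this window and does not show that a factor binds.

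**Figure D4:**
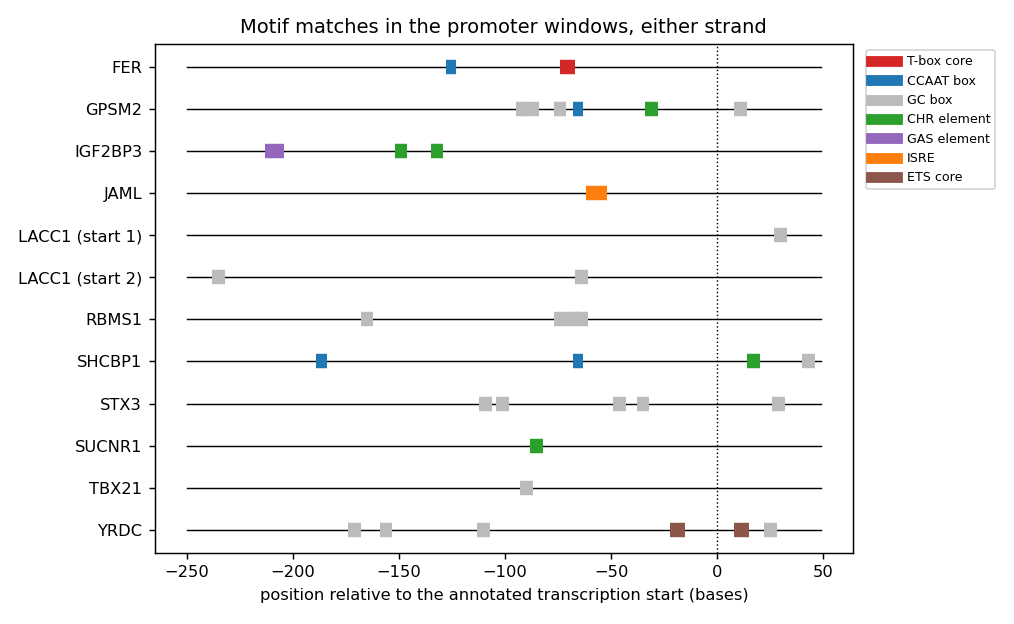
Positions of motif matches on either strand in the promoter windows of the members and of TBX21, in bases from the annotated start (dotted line at 0), with 1 row per window. A T-box core is present only for FER, and GPSM2 and SHCBP1 share a CCAAT box at the same distance from the start.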

How the data were processed

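Total RNA from 2 samples of KG1 cells, 1 per group, was hybridised to Affymetrix 3' expression arrays, from 1 µg of RNA per the labels. The authors deposited linear signal intensities made with MAS5, per the submitters' processing notes; no source used here gives its version. MAS5 subtracts mismatch signal, which makes dim intensities noisy. The 2% trimmed means of the deposited intensities were 1000.13 and 1000.12, so no further scaling was applied.

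Names came from the platform annotation, with symbols updated through RefSeq (GRCh38.p14): 41097 had 1 gene, of which 41043 matched, 1801 with several genes were not used, and 11777 have no name here. A fixed size of 1.5-fold or 2-fold took the place of a test. For lists and neighbours each gene was read by its brightest probe set, avoiding the suffix _x_at. The text names every member, TBX21 and at most 3 genes per list by size of ratio. It also names neighbours past 1.5-fold or with a start within 1 kb, and up to 10 other genes lower at 2 or more probe sets. Marker genes, IGF2BP2, JAM3 and ENOX1 were added after their values were seen. Members and lists were chosen with earlier results of these data known. Alternatives covered scaling, floors and probe set choice. Python 3.11.15, pandas 2.3.3 and statsmodels 0.14.6 were used, and the ratio and motif steps were tested on simulated data.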

Additional observations from a re-analysis of the deposited data

How the results depend on the processing

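The median log2 ratio of the member probe sets lay between -0.70 and -0.66 under every alternative run, and the count at least 1.5-fold lower between 16 and 18 of 24 to 28 probe sets, except for 12 of 15 after flooring at the 75th percentile, and 10 of 14 without the suffixes _s_at, _x_at and _a_at, where fewer probe sets were counted. With a floor at the 75th percentile the count at least 2-fold lower was 1 in place of 4, and both the partner and the neighbour counts at least 1.5-fold lower were 0 in place of 2. Over all measured probe sets the share at least 1.5-fold lower was 3.31% in the main setting, 0.599% with a floor at the 75th percentile, 11.1% at the 25th, 16.4% with no floor and 12.1% with a constant of 16 added. The partner count was 4 with a floor at the 25th percentile, 7 with no floor, 6 with that constant added to unfloored signals, and 1 with the median over a gene's probe sets, which left MPZL3. Of the 24 measured member probe sets, 24 stayed lower under median scaling, quantile normalization and removal of the lowess trend (span 0.3). Without a floor, 2 of all 28 were higher, both under the array medians. The log2 ratio of FER at 206412_at was -2.70 without a floor, and that of JAML was -0.63 with a floor at the 75th percentile. No paired analysis was possible because each group holds 1 array. The values of FER at 206412_at, FBXL17, ENOX1, NOD2, CXADR and MPZL2 each rest on 1 signal raised to the array median.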

Other observations

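Genes outside the members also had at least 2 probe sets that were at least 1.5-fold lower, many of them dim. Of 6155 genes with 2 or more measured probe sets, 30 (0.487%) had at least 2 that were at least 1.5-fold lower with siRNA-Tbet, RBMS1, LACC1 and FER included. The 10 others with the lowest median ratio follow. IL15, which supports natural killer cell survival, had 233 and 161 with siRNA-Tbet and 426 and 278 with siRNAc at its 2 probe sets. CLEC7A, which encodes the β-glucan receptor dectin-1, had 565, 372 and 365 with siRNA-Tbet and 921, 583 and 496 with siRNAc, so 2 of 3 probe sets passed 1.5-fold and the third was 1.36-fold lower. NCAM1, the adhesion molecule CD56, had 550 and 341 with siRNA-Tbet and 862 and 548 with siRNAc. IL17RC, a subunit of the IL-17 receptor, was 2.37-fold and 1.52-fold lower, with 213 and 424 on the siRNA-Tbet array and 506 and 646 on the siRNAc array.

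CPEB3, which binds the cytoplasmic polyadenylation element of mRNAs, was 2.18-fold lower on 1 probe set (150 with siRNA-Tbet and 327 with siRNAc) and 1.62-fold lower on the other (231 and 375). CTU2, which thiolates tRNAs, had 1508 with siRNA-Tbet and 1412 with siRNAc on its brightest probe set, which was not lower, and 154 and 285 on a second. The remaining probe set rests on a siRNA-Tbet value of 21.6, under the array median. SH3RF1, a scaffold protein with ubiquitin ligase activity, had 1086 and 12.3 with siRNA-Tbet and 1688 and 271 with siRNAc. ESR1 and TLCD5 rest on siRNA-Tbet values under the array median at both probe sets, and FAM149B1 was lower at 3 of 3 probe sets, by 1.14-fold to 2.11-fold. Agreement between probe sets was part of how these genes were picked and is no added support.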
